A study of Homo sapiens with 4 samples.

Results

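The 10 genes described here encode matricellular proteins (THBS1, THBS2, THBS3, TNC and POSTN) and proteins of microfibrils and elastic fibers (FBN1, FBN2, FBLN1, EFEMP1 and ELN). They were taken as a list of gene symbols from a table of 61806 genes measured in 4 libraries, and each symbol matched 1 row. The libraries came from JJ012, a human chondrosarcoma cell line, and 143B, a human osteosarcoma cell line, both held in suspension, either untreated (control) or with 1 mM melatonin for 72 h. There was 1 library per condition and no replicate culture, so within a line no difference could be set against the spread between cultures, and a test was made only over both lines together. The intervals given below cover counting error only and not the spread between cultures. PCR copies of a molecule are counted as separate reads, so the intervals may be too narrow even for counting error. Poly(A)-selected RNA was measured in bulk, so fewer cells expressing a gene and less of its RNA per cell cannot be told apart.

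Matricellular proteins are secreted into the extracellular matrix, where they bind to cell surface receptors and matrix fibers and modulate adhesion more than they bear load. Fibrillins assemble into microfibrils, which hold latent TGF-beta and BMP complexes and serve as the scaffold on which elastin is laid down with the help of fibulins and lysyl oxidases. In skeletal tissue, thrombospondins and periostin are found in cartilage, periosteum and bone, and fibrillins are needed for normal skeletal growth.

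The libraries held between 15889564 and 19218343 counts, and 3 counts, taken as the limit that a count of 0 allows, corresponded to between 0.156 and 0.189 CPM (counts scaled to the library total alone). Levels are given as FPKM, counts scaled to exonic length and to the library total, which allow genes of different length to be compared. Of the cartilage markers, SOX9 had 15.06 FPKM in the JJ012 control, COL2A1 had 0 counts and ACAN 4 counts there, and COL11A1 had 22.92 FPKM there and was listed at 0 in 143B. Defining genes of cartilage matrix were thus in part absent or near the limit in the chondrosarcoma line. Of the osteoblast markers, RUNX2 had 4.28 FPKM in the 143B control, while SP7, IBSP and DMP1 had 0 counts. The osteoblast list summed to 94.74 FPKM in the JJ012 control, of which SPP1 gave 79.39 FPKM, against 6.97 FPKM in the 143B control, so it was higher in the chondrosarcoma line. In all, 2 of 8 cartilage markers reached 1 FPKM in both JJ012 libraries and 1 of 8 in both 143B libraries, 2 of 8 osteoblast markers did so in both 143B libraries, and epithelial, endothelial and leukocyte markers summed to at most 3.95 FPKM per list in any library.

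To see which of these matrix genes each tumor line transcribes, their levels were first ordered within each library. Each line had its own set. THBS3, EFEMP1, ELN and POSTN were read mainly in JJ012, THBS2, FBLN1 and FBN2 mainly in 143B, and FBN1, TNC and THBS1 in both. In the JJ012 control THBS3 alone made up 60.7% of the summed FPKM of the 10 genes, followed by FBN1 (13.2%) and EFEMP1 (8.99%). In the 143B control FBLN1 (32.8%), THBS2 (21.0%) and FBN1 (19.8%) led. With melatonin, the sum over the 10 genes was 43.59 FPKM against 81.07 in untreated JJ012, and 38.18 FPKM against 39.38 in untreated 143B.

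**Figure D1:**
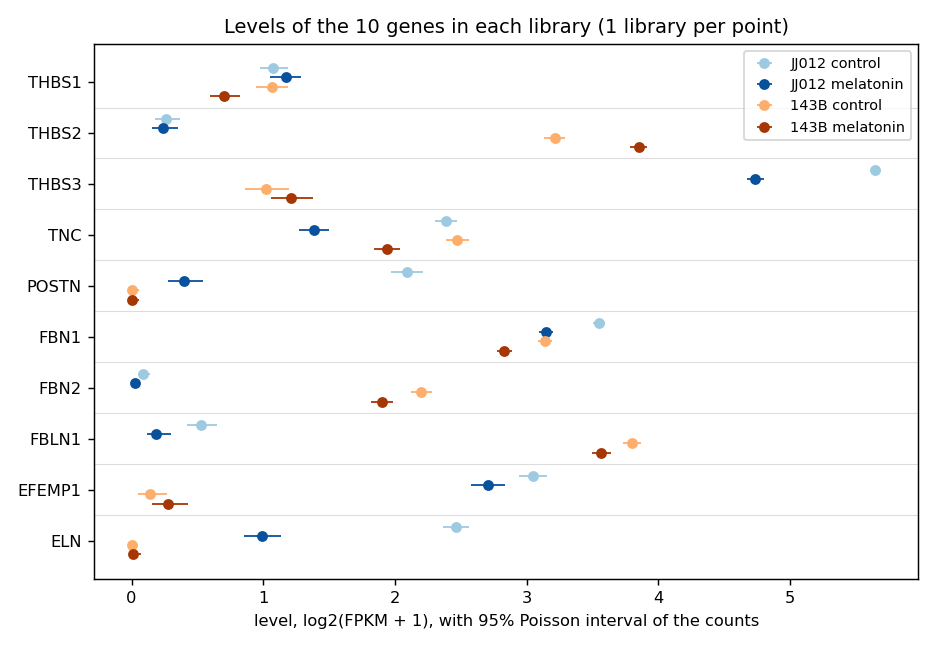
Levels of the 10 genes as log2(FPKM + 1) on the x axis, 1 point per library, with bars for the 95% Poisson interval of the counts. THBS3, EFEMP1, ELN and POSTN lie higher in JJ012, THBS2, FBLN1 and FBN2 lie higher in 143B, and THBS1 lies near 1 except in treated 143B, where it is lower.

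Among the thrombospondins, THBS3 (ENSG00000169231, chromosome 1, 155195588 to 155209051, minus strand), a pentameric family member expressed in cartilage and bone, was the most abundant of the 10 genes in both JJ012 libraries. In the 143B control THBS3 held rank 7, and in treated 143B rank 6. It had 49.22 FPKM in the JJ012 control, 25.70 FPKM in JJ012 with melatonin, 1.03 FPKM in the 143B control and 1.32 FPKM in 143B with melatonin. Both JJ012 libraries were thus far above both 143B libraries, and the treated JJ012 library was the lower of its pair. In JJ012, the control level was higher than that of 94.0% of protein-coding genes at 1 FPKM or more. On the other strand, THBS3 shares 357 bases with MTX1 and 9908 bases with the antisense gene THBS3-AS1, introns included, and the strand setting of the counting is not given in the sources used here. THBS3-AS1 had 186 and 70 counts in control and treated JJ012 beside 4373 and 1918 counts of THBS3, and the part of shared reads in the THBS3 value was not tested.

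THBS2 (ENSG00000186340, chromosome 6, 169215780 to 169254050, minus strand), a trimeric thrombospondin that inhibits angiogenesis, showed the opposite distribution. It had 0.20 and 0.18 FPKM in control and treated JJ012 (28 and 21 counts), and 8.27 and 13.46 FPKM in control and treated 143B (946 and 1663 counts). The treated 143B library was the highest of the 4, and there THBS2 took the first rank among the 10 genes from FBLN1. Its antisense partner THBS2-AS1, on the other strand, had 48 and 54 counts in the 143B libraries.

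THBS1 (ENSG00000137801, chromosome 15, 39581079 to 39599466, plus strand), the thrombospondin that activates latent TGF-beta and binds CD36 and CD47, was low in both lines. It had 1.11 and 1.25 FPKM in control and treated JJ012 (196 and 185 counts) and 1.09 and 0.63 FPKM in control and treated 143B (159 and 99 counts). The treated 143B library was the lowest, and the other 3 libraries had overlapping counting intervals.

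TNC (ENSG00000041982, chromosome 9, 115019575 to 115118257, minus strand) encodes tenascin C, a hexameric glycoprotein of remodelling and tumor stroma. It had 4.23 and 1.61 FPKM in control and treated JJ012 (784 and 251 counts), and 4.56 and 2.83 FPKM in control and treated 143B (699 and 469 counts). The treated library was the lower one in each line. POSTN (ENSG00000133110, chromosome 13, 37562583 to 37598844, minus strand) encodes periostin, a protein of periosteum that binds integrins and promotes collagen crosslinking. It had 3.27 and 0.32 FPKM in control and treated JJ012 (343 and 28 counts), and 0 counts in each 143B library.

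FBN1 (ENSG00000166147, chromosome 15, 48408313 to 48645721, minus strand), which encodes the main fibrillin of adult microfibrils, was the only one of the 10 with more than 5 FPKM in each of the 4 libraries. It had 10.72 and 7.86 FPKM in control and treated JJ012 and 7.80 and 6.12 FPKM in control and treated 143B, from between 1946 and 3815 counts. FBN2 (ENSG00000138829, chromosome 5, 128257909 to 128659185, minus strand), the fibrillin of developing tissue, had 0.06 and 0.02 FPKM in JJ012 (16 and 4 counts) and 3.60 and 2.74 FPKM in 143B (756 and 622 counts). Thus both lines transcribed FBN1, while FBN2 was read almost entirely in 143B.

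FBLN1 (ENSG00000077942, chromosome 22, 45502238 to 45601135, plus strand) encodes fibulin 1, which binds fibronectin and elastic fibers. It had 0.44 and 0.14 FPKM in JJ012 (62 and 17 counts) and 12.93 and 10.86 FPKM in 143B (1497 and 1358 counts). EFEMP1 (ENSG00000115380, chromosome 2, 55865967 to 55924139, minus strand) encodes a fibulin of connective tissue and basement membranes. It had 7.29 and 5.52 FPKM in JJ012 (555 and 353 counts) and 0.10 and 0.21 FPKM in 143B (6 and 14 counts), so these fibulins were read in different lines. ELN (ENSG00000049540, chromosome 7, 74027789 to 74069907, plus strand), the gene of elastin, had 4.53 and 0.99 FPKM in JJ012 (572 and 105 counts) and 0 and 1 counts in 143B. ELN-AS1, on the other strand, had 73 and 41 counts in control and treated JJ012, and its part in the ELN value was not tested.

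Some neighbors in these orders could not be separated. In the JJ012 control the intervals of ELN and TNC overlapped, and in treated JJ012 those of TNC and THBS1, of THBS1 and ELN, of POSTN and THBS2, and of THBS2 and FBLN1 did. In the 143B control THBS2 and FBN1 overlapped, as did THBS1 and THBS3, and in treated 143B TNC and FBN2 did. EFEMP1, ELN and POSTN in the 143B control and ELN and POSTN in treated 143B also had overlapping intervals, at or near 0.

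The untreated lines were then compared directly. The log2 fold change was the log2 of (FPKM + 1) in JJ012 over (FPKM + 1) in 143B, and an absolute value of at least 0.58, the fold limit of the study, was counted as a difference. The study paired this fold limit with an FDR under 0.05, which was not applied here. The pseudocount of 1 FPKM understates the change of low genes, so the ratio of CPM with its exact (Clopper-Pearson) 95% interval is given too. With this limit, 4 of the 10 genes were higher in JJ012 and 3 were higher in 143B, beside 41.3% and 27.4% of the 16929 genes tested, those with at least 1 FPKM in 1 or both libraries. Most of the tested genes thus differed between these lines, and the share among the 10 genes is near that background. EFEMP1, ELN and POSTN passed the filter through JJ012 alone, and THBS2, FBLN1 and FBN2 through 143B alone. A count with 1 FPKM required in both lines was not made. By CPM, THBS3 was 47.6-fold higher in JJ012 (37.9 to 60.5) and EFEMP1 76.5-fold higher (34.9 to 209). POSTN was at least 94.5-fold higher and ELN at least 158-fold higher, both against a 143B library at 0 counts that was set to 3 counts, and the lower limits of their exact intervals, which include the counting error of the JJ012 library, were 76.5-fold and 128-fold. FBN2 was 57.1-fold lower in JJ012 (35 to 100.5), THBS2 40.9-fold lower (28.1 to 61.8) and FBLN1 29.2-fold lower (22.6 to 38.3). FBN1 was 1.37-fold higher in JJ012 (1.30 to 1.45), under the limit, though its value depended on the scaling, as given in the last section. The intervals of THBS1 (log2 ratio of CPM 0.03, -0.28 to 0.34) and TNC (-0.11, -0.26 to 0.04) included 0.

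The melatonin-treated libraries, which share no library with the controls, gave 2 genes higher and 3 lower in JJ012 among the 8 of the 10 that reached 1 FPKM, beside 38.8% and 23.2% of the genes tested. Of those past the limit, EFEMP1 passed the filter through JJ012 alone, and THBS2, FBLN1 and FBN2 through 143B alone. THBS3 was 19.4-fold higher in JJ012 by CPM (16.0 to 23.9), EFEMP1 26.8-fold higher, THBS2 74.5-fold lower, FBLN1 75.1-fold lower and FBN2 146-fold lower (56.8 to 538). POSTN, with 28 counts against 0, was at least 9.92-fold higher against 3 counts (lower limit of the exact interval 7.55), and ELN, with 105 counts against 1, was 112-fold higher (19.6 to 4451), so both kept their direction but lay under 1 FPKM. THBS1 was 1.99-fold higher in JJ012 with melatonin (1.55 to 2.56), and TNC 1.76-fold lower (1.5 to 2.06).

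To examine the response to melatonin in chondrosarcoma, treated JJ012 was compared with its control over genes with at least 1 FPKM in 1 or both libraries. A total of 7 of the 10 genes passed this filter, and ELN and POSTN passed it through the control library alone. POSTN, ELN, TNC and THBS3 fell, and no gene of the 7 rose. This is 4 of 7, beside 18.6% of the 15794 tested genes that fell and 19.6% that rose. The members were chosen with earlier results of these data known, so this comparison is a description. The median log2 fold change of the 7 was -0.91, against 0.01 over the tested genes. Of the 5 with at least 1 FPKM in both JJ012 libraries, 2 fell and the median was -0.40, beside 14.6% lower and a median of 0.03 over the 12802 genes with this level in both. POSTN had the largest fall, with a log2 fold change of -1.69, and by CPM it was 10.3-fold lower (6.99 to 15.7). ELN had a log2 fold change of -1.47 and was 4.58-fold lower by CPM (3.71 to 5.69). TNC had -1.0 and was 2.62-fold lower (2.27 to 3.04). THBS3 had -0.91 and was 1.92-fold lower (1.81 to 2.02). Cell type markers moved in the same library: the cartilage list summed to 39.01 FPKM in control and 9.76 FPKM in treated JJ012, with COL11A1 at 22.92 and 3.24 FPKM and SOX9 at 15.06 and 6.16 FPKM, and the osteoblast list to 94.74 and 68.20 FPKM. The part of this shift in the falls of the 4 genes was not tested.

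The other 3 tested genes stayed under the limit in JJ012. FBN1 had a log2 fold change of -0.40 and EFEMP1 of -0.35, and their counting intervals by CPM lay below 0 (-0.52 to -0.37 and -0.60 to -0.21). THBS1 had 0.09, with an interval of -0.13 to 0.47 by CPM. In all, 6 of the 7 intervals lay below 0 and 0 above, beside 35.2% and 36.9% of the tested genes, so at this depth such an interval marks most of the tested genes. Of the 3 genes under 1 FPKM in both JJ012 libraries, FBLN1 had a log2 ratio of CPM of -1.62 (-2.48 to -0.82), FBN2 of -1.75 (-3.79 to -0.12), from 16 and 4 counts, and THBS2 of -0.16 (-1.05 to 0.70).

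In 143B, 7 of the 10 genes passed the filter, THBS1 through the control library alone. THBS2 rose, with a log2 fold change of 0.64, and by CPM it was 1.63-fold higher (1.5 to 1.76). This is 1 of 7 higher and 0 of 7 lower, beside 6.09% and 6.65% of the 14135 tested genes. TNC had a log2 fold change of -0.54, just under the limit, with 1.61-fold lower CPM (1.43 to 1.81). THBS1 had -0.36 with the pseudocount and was 1.73-fold lower by CPM (1.34 to 2.25), and with a pseudocount of 0.1 FPKM, with TPM or with CPM both TNC and THBS1 passed the limit. FBN1 (-0.31), FBN2 (-0.30) and FBLN1 (-0.23) were lower by less than the limit, and THBS3 had 0.19. In all, 5 of the 7 counting intervals lay below 0, 1 above 0 and that of THBS3 on both sides, beside 23.5% of tested genes below 0 and 28.4% above. EFEMP1, with 6 and 14 counts, had an interval of -0.36 to 2.78. For POSTN and ELN, each 143B library held 1 count or none, so a change in them was not detectable at this depth.

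**Figure D2:**
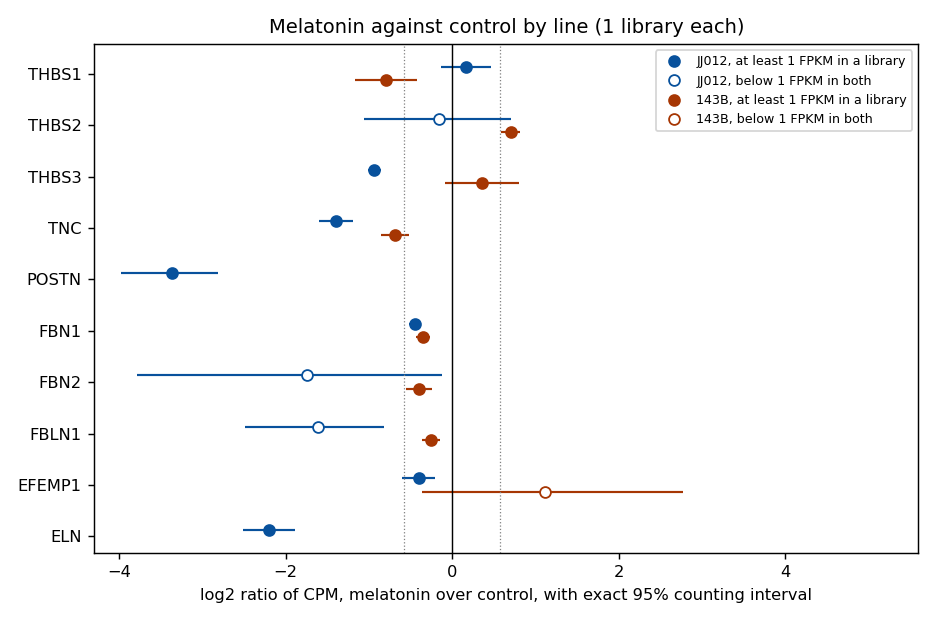
Log2 ratio of CPM (x axis) of melatonin over control for each gene, by line, 1 library each. Bars are exact 95% counting intervals, open points mark genes under 1 FPKM in both libraries, and dotted lines mark 0.58 either side of 0; POSTN and ELN have no finite ratio in 143B. POSTN at -3.36 and ELN at -2.19 in JJ012 lie farthest from 0, and THBS2 at 0.70 is the 143B gene whose whole interval lies above 0.

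Taking the control and treated library of each line as a pair, edgeR's quasi-likelihood test with the line as a block, which treats the 2 lines as replicates and has 1 residual degree of freedom per gene, gave an adjusted p (Benjamini-Hochberg) under 0.05 for 82 of 18107 genes (0.453%) and for 1 of the 10. This was POSTN, with a log2 fold change of -3.33 (SE 0.865, adjusted p = 0.0325), which rests on JJ012 alone because 143B had 0 counts. For POSTN the 143B pair thus adds nothing on spread. Its adjusted p leans on the spread of other genes and not on replicates of its own. ELN had an adjusted p of 0.319 and TNC of 0.359 in this edgeR fit, with log2 fold changes of -1.95 and -1.06, and the other 7 genes had adjusted p-values of at least 0.861.

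The responses of the lines were set against each other as the difference between their log2 ratios of CPM, JJ012 minus 143B, with an exact conditional 95% interval that again covers counting error only. The difference was -0.70 for TNC (-0.98 to -0.43), -1.29 for THBS3 (-1.74 to -0.85) and -1.36 for FBLN1 (-2.24 to -0.56), all lower in JJ012. FBLN1 rests on 62 and 17 counts in control and treated JJ012, under 1 FPKM in both. It was 0.96 for THBS1 (0.48 to 1.45), which was lower in 143B. For FBN1 the difference was -0.10 (-0.21 to 0.02), for THBS2 -0.87 (-1.76 to 0.01) and for FBN2 -1.36 (-3.40 to 0.29), and these intervals included 0. For EFEMP1 it was -1.51 (-3.19 to -0.02), from at most 14 counts in 143B. With both lines scaled to TPM, which moved each difference up by 0.33, TNC had -0.37 and THBS3 -0.96, the interval of EFEMP1 included 0, and FBN1 changed sign to 0.24 (0.12 to 0.35). How much of these differences the variation between cultures would give is unknown with 1 library per condition.

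Because log2 fold changes in JJ012 varied with exonic length, the fold changes were placed beside those of genes of their own length. The 10 genes span 3962 bases (EFEMP1) to 18525 bases (FBN1), against a median of 5223 bases for protein-coding genes at 1 FPKM or more. In JJ012 the running median over genes of similar length was 0.38 at FBN1, 0.29 at TNC, 0.27 at THBS1, 0.13 at ELN, 0.10 at POSTN, 0.05 at THBS3 and -0.10 at EFEMP1. Less this median, FBN1 had -0.78 in JJ012, past the limit, TNC had -1.30, and THBS1 had -0.18, on the other side of 0. In 143B the running median lay between -0.04 and 0.05 at the tested genes.

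**Figure D3:**
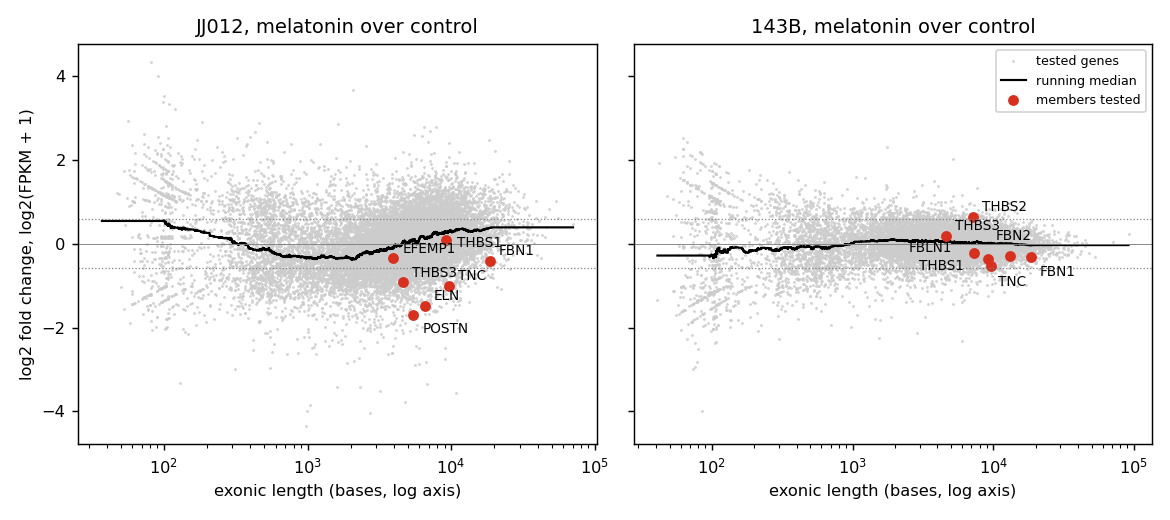
Log2 fold change (y axis) of melatonin over control against exonic length in bases (log x axis) in each line. Grey points are tested genes, the black line is their running median over genes of similar length, red points are the tested genes among the 10, and dotted lines mark 0.58; in JJ012 the red points lie below the black line, which reaches 0.38 at FBN1.

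Promoter sequences are shown for POSTN and TNC, which fell in JJ012, for THBS2, which rose in 143B, and for THBS1, which had a similar level in both untreated lines. The RefSeq table (GRCh38.p14) was matched for 8 of the 10 genes, ELN and EFEMP1 being the others, and THBS3 has 2 starts in it. Each sequence is the 250 bases before the RefSeq start on the gene's strand, 5′ to 3′, and capitals mark matches to 6 motifs, searched on both strands, which may overlap. These were the TATA box, written TATAAA, the GC box, written GGGCGG, and the core bound by TEAD factors, written GGAATG. The others were the AP-1 site, written TGANTCA, the SMAD element, written CAGACA, and the E-box, written CACGTG. The start in the authors' table lies 76 bases farther upstream for POSTN, 100 for TNC and 204 for THBS2, and at the same base for THBS1.
POSTN chr13:37598769-37599018 (minus strand): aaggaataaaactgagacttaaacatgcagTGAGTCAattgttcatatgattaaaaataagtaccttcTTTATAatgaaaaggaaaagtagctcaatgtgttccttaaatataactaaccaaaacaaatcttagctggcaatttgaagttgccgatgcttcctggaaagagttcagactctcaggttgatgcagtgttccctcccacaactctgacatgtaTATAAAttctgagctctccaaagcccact
TNC chr9:115118158-115118407 (minus strand): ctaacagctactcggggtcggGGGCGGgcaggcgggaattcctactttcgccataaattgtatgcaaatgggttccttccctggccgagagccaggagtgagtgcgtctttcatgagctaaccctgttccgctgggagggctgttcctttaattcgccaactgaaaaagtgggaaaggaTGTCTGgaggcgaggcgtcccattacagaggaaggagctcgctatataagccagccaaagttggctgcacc
THBS2 chr6:169253847-169254096 (minus strand): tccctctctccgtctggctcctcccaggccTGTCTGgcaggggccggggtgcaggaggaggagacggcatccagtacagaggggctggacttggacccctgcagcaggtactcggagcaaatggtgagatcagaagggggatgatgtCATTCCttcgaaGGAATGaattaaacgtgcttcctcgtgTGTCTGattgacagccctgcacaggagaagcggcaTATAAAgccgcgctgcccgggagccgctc
THBS1 chr15:39580829-39581078 (plus strand): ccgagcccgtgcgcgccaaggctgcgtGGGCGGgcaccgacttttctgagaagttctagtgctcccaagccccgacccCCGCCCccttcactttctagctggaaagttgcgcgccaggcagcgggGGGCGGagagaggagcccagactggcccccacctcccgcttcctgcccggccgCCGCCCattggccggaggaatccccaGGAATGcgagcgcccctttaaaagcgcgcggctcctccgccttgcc

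POSTN and THBS2, which moved in different lines and directions, both held TATAAA at -29, which 10.7% of the 35116 RefSeq promoters hold somewhere in this window. The POSTN window had a GC content of 36.4%, against a median of 58.0% over all promoters, and the THBS1 window had 69.6% and 4 matches to GGGCGG, a motif in 42.6% of promoters. GGAATG was found in THBS2, at -103 and -91, in THBS1 at -46 and in FBN1 at -58, and it is held by 11.9% of promoters. CAGACA was found in THBS2 and TNC (13.6% of promoters), TGANTCA in POSTN (6.57%) and CACGTG in FBN2 (6.34%). The RefSeq start lies 120940 bases from the start in the authors' table for FBN2, and 751 bases from it for FBN1. No motif of these 6 was shared by POSTN and TNC as written. TNC and both windows of THBS3, which also fell in JJ012, held GGGCGG, the motif found in 42.6% of promoters. The search took exact letters only, so a variant such as the tatataag near the end of the TNC window was not counted. A match describes the letters of the window and not a bound site.

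The partners of these proteins were read from 4 written lists, chosen with earlier results of these data known. Of 16 tested microfibril and elastic fiber partners, 9 were lower and 0 higher in JJ012, and their median log2 fold change was -0.75 (-0.52 with TPM, where 7 were lower and 1 higher). Over the genes tested in JJ012 18.6% were lower and 19.6% higher. LOX, the lysyl oxidase that crosslinks elastin and collagen, fell from 602.9 to 80.21 FPKM in JJ012 (-2.89), its relative LOXL1 from 47.03 to 6.78 FPKM (-2.63) and LOXL3 from 30.81 to 6.70 FPKM (-2.05). EMILIN1, an elastin-microfibril interface protein, fell from 37.92 to 13.07 FPKM (-1.47). In 143B, where 6.65% of all tested genes were lower and 6.09% higher, 1 of 15 tested partners fell and 0 rose, with a median of -0.03. This gene was FN1, fibronectin, from 69.52 to 34.76 FPKM (-0.98), and it also fell in JJ012, from 799.64 to 457.91 FPKM (-0.80). LOX had 357.82 and 444.26 FPKM in 143B, a log2 fold change of 0.31.

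Of 9 tested matricellular genes outside the 10, 2 rose and 3 fell in JJ012 (median -0.30), beside 19.6% and 18.6% of tested genes, and 2 of the 3 falls (TGFBI and SPARCL1) were in genes that passed the filter through the control library alone. In this list 0 of 6 passed the limit in 143B (median 0.25), beside 12.7% of all genes tested in 143B. SPARC, a collagen-binding protein of bone, fell from 124.78 to 57.05 FPKM in JJ012 (-1.12), and CCN1, an integrin ligand induced by YAP, rose from 1.83 to 6.13 FPKM (1.33). Of 11 tested receptors, 2 rose and 4 fell in JJ012 (median -0.11, or 0.16 with TPM and -0.35 with the length correction), beside the same 19.6% and 18.6%. In 143B 0 of 11 receptors passed the limit (median 0.01), beside the same 12.7%. CD36, a thrombospondin receptor, fell from 12.52 to 4.54 FPKM in JJ012 (-1.29), LRP1, the receptor that clears thrombospondins, from 20.81 to 9.64 FPKM (-1.04), and CALR from 854.79 to 466.12 FPKM (-0.87), while SDC4, a syndecan, rose from 17.28 to 36.65 FPKM (1.04).

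Of 14 tested processing enzymes and inputs of TGF-beta and YAP signaling, 4 rose and 2 fell in JJ012 (median 0.40), near the 38.2% of tested genes past the limit in either direction. Under TPM 8 were higher and 2 lower, but after the length correction 1 was higher and 3 lower. In 143B 0 of 13 passed the limit (median 0.04), beside 12.7% of all genes tested in 143B. FURIN, the protease that processes profibrillin, fell from 55.88 to 23.82 FPKM in JJ012 (-1.20), and HTRA1, a secreted serine protease, from 82.03 to 41.90 FPKM (-0.95). One of the 4 that rose, TGFB2, passed the filter through the treated library alone. TEAD1, the DNA-binding partner of YAP, rose from 5.71 to 11.10 FPKM (0.85), and SMAD3, a transcription factor of TGF-beta signaling, from 7.15 to 12.53 FPKM (0.73). The medians over the tested genes of the table were 0.01 in JJ012 and 0.03 in 143B.

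**Figure D4:**
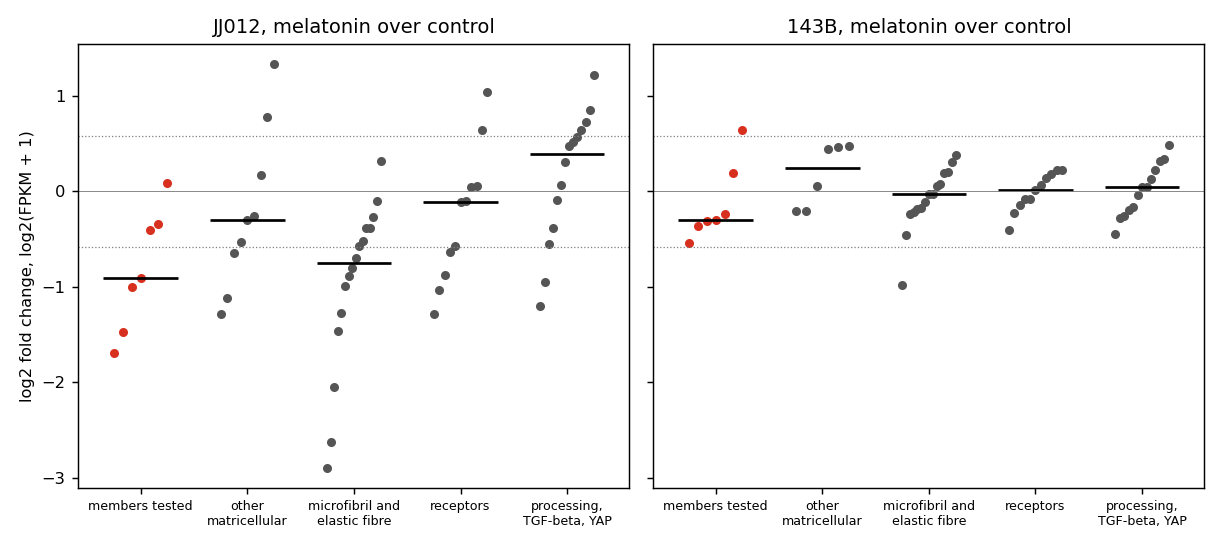
Log2 fold change (y axis) of melatonin over control for the tested genes among the 10 (red) and for the tested genes of 4 written lists (grey), 1 point per gene, with a black bar at the list's median and dotted lines at 0.58. In JJ012 the medians are -0.91 for the genes among the 10 (-0.40 without POSTN and ELN, which were under 1 FPKM with melatonin) and -0.75 for microfibril and elastic fiber partners, and in 143B they are -0.30 and -0.03.

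For THBS3 and FBN1, the 2 of the 10 genes with the highest FPKM averaged over the 4 libraries, the genes with the most similar pattern over the 4 libraries were sought by the Euclidean distance between log2(FPKM + 1) values centered on their mean, among the 8529 protein-coding genes that reached 5 FPKM in any library. Nearest to THBS3 were PTN (distance 0.14), MAGEA11 (0.27) and ARSA (0.27). Like THBS3, ARSA was at 45.81 and 30.90 FPKM in JJ012 and at 1.33 and 1.44 FPKM in 143B. Nearest to FBN1 were PSMD14 (0.07), PLP2 (0.10) and VASP (0.11). With 4 libraries such a distance is a description alone.

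Some of the 10 genes share annotation. They were listed as matricellular and microfibril proteins, so shared annotation of the matrix is in part given by that choice. In the KEGG names of the authors' table, THBS1, THBS2, THBS3 and TNC carry ECM-receptor interaction, Focal adhesion and PI3K-Akt signaling pathway, and 3 genes (FBN1, FBN2 and THBS1) carry TGF-beta signaling pathway. Of the 4 genes under PI3K-Akt signaling pathway, THBS3 and TNC fell in JJ012, where 18.6% of all tested genes fell. THBS2 rose in 143B, where 6.09% of all tested genes rose, and THBS1 passed the limit in neither line. How often other genes of the table carry these names, and how they moved, was not examined.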

How the data were processed

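RNA was measured in 1 library per condition. The deposited table holds raw counts for each gene in each library and FPKM, which the authors made from the counts by exonic length and library total and rounded to 2 decimals. The submitters' notes name cutadapt 1.9.1, HISAT2 2.2.1, HTSeq 0.6.1, DESeq2 and hg38, and the strand setting is not given in the sources used here. Exonic lengths in bases were also deposited. Columns were matched to samples by cell line, and the suffix T was read as melatonin-treated.

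Fold changes used log2(FPKM + 1) and took in genes that reached 1 FPKM in either library of a pair, and an absolute value of at least 0.58 was counted. CPM ratios had exact (Clopper-Pearson) 95% intervals, levels had Poisson intervals, and differences between lines had exact conditional intervals. Without replicates no p-value was computed within a line. Over both lines, edgeR 4.0.16 (R 4.3.3) fitted melatonin with the line as a block to the counts of genes that reached 1 FPKM in any library.

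The members and lists were chosen with earlier results of these data known. The text names the 10 members, from each list at most 4 genes per line past the limit with at least 5 FPKM, and the 3 nearest genes to the 2 members with the highest mean FPKM. COL2A1, ACAN and similar markers were named as cell type checks, FN1 and LOX were given in both lines, and TGFBI, SPARCL1 and TGFB2 named, after their values were seen. One gene of the written lists is not reported here and was left out of its list. Gene types came from GENCODE 29. The procedures were tested on simulated counts. These held counting error or a small assumed spread and, for the edgeR fit, the same change in both lines. They do not cover the unknown spread between cultures here. Alternatives were other pseudocounts, filters, scalings, thresholds and a length correction, and the comparison of treated lines and the other scalings of the lists and of the response difference as well as the edgeR fit and the filter on both libraries were added after seeing the data. Tools were pandas 2.3.3, scipy 1.17.1 and numpy 2.4.6 in Python 3.11.15, with figures from matplotlib 3.10.9.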

Additional observations from a re-analysis of the deposited data

Results flagged for a closer look

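THBS1 and THBS3 moved in opposite directions with melatonin in the lines. The difference between the log2 ratios of CPM, JJ012 minus 143B, was 0.96 for THBS1, from 0.17 in JJ012 and -0.79 in 143B. It was -1.29 for THBS3, from -0.94 in JJ012 and 0.35 in 143B. The intervals of THBS1 in JJ012 and of THBS3 in 143B included 0, so an opposite direction was not shown beyond counting error for either gene. With 1 library per condition, the difference was not tested against the variation between cultures.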

How the results depend on the processing

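With the line as a replicate block, the paired edgeR fit over both lines, chosen after seeing the data, passed 1 gene of the 10. This was POSTN, which had counts in JJ012 alone, and no paired fit exists within a line. In JJ012, 4 genes passed the limit, and 1 of the 3 that remained with a filter of 5 FPKM did, since fewer genes were tested. Of all tested genes in JJ012, 38.2% passed, and 39.7% with that filter. In 143B, 1 gene passed, against 3 with a pseudocount of 0.1 FPKM, 3 with TPM, 3 with CPM and 0 with a threshold of 1. The share of all tested genes past the limit in 143B was 12.7%, against 20.9%, 19.3%, 11.4% and 4.45% in these settings. Between the untreated lines, 7 genes passed, against 4 of the 5 that remained with 5 FPKM and 8 with the length correction. Of all tested genes 68.7% passed there, against 69.5% and 62.6% in these settings. The gene added by the length correction was FBN1, with a log2 fold change of 0.70, against 0.41 and 0.08 with TPM. No gene past the limit changed sign in these settings, while THBS1 ranged from -0.18 to 0.37 in JJ012 and from -0.29 to 0.10 between the untreated lines. POSTN in JJ012 ranged from -3.00 to -1.69, ELN from -2.09 to -1.47, TNC from -1.34 to -1.0 and THBS3 from -0.96 to -0.66, and THBS2 in 143B ranged from 0.62 to 0.70. TPM moved the median gene of JJ012 from 0.01 to 0.27 and the share of higher genes among those past the limit from 51.4% to 68.8%, where THBS3 had -0.66, FBN1 -0.17 and EFEMP1 -0.12. Between the untreated lines that share was 60.1%, against 49.3% with TPM, 48.6% when centered on the median gene and 47.7% with the length correction, and the median gene went from 0.29 to -0.01 with TPM. In settings chosen after seeing the data, the outside matricellular genes past the limit in 143B numbered 1 with TPM and 1 with CPM, against 0, and the processing genes in JJ012 numbered 10 with TPM, against 6. With TPM the share of all tested genes in JJ012 rose as well, from 38.2% to 50.3%. With at least 1 FPKM required in both libraries, also chosen after seeing the data, 2 genes of the 10 passed in JJ012, against 4, and 3 of the outside matricellular genes, against 5. Of all genes with this level in both JJ012 libraries, 17.4% were higher and 14.6% lower. Depth limits POSTN, ELN and EFEMP1 in 143B and FBN2 and THBS2 in JJ012, which had at most 28 counts.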
